A study of Mus musculus with 2 samples.

Results

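The genes described here are 10 genes of muscle protein breakdown, chosen by name: the ubiquitin ligase genes Fbxo32, Trim63, Fbxo30, Fbxo31, Fbxo21 and Cblb, and the transcription factor genes Foxo1, Foxo3, Foxo4 and Klf15. Every probe carrying one of these gene names was taken, which gave 18 probes and 27 spots for 10 of the 26330 gene names on the array. Of the 10 genes, 9 were well above background on both arrays, against 13061 of all gene names, and Foxo3 was not. Well above background is the scanner software's own call for a spot.

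Total RNA was taken from the tibialis anterior, a fast-twitch muscle at the front of the shin, of adult male C57BL/6 mice. One group was a control and the other carried a transgene for an activated form of Notch2, a cell surface receptor, and is named N2ICD-mTG in the labels, here N2ICD. The labels give no genotype for the control beyond that word, no promoter for the transgene and no age in weeks. Each group was 1 array, and the comparison asked which transcripts had other levels in muscle with active Notch2.

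Ubiquitin ligases attach ubiquitin to chosen proteins, which are then cut up by the proteasome. Fbxo32 (atrogin-1, MAFbx) and Trim63 (MuRF1) are the muscle ligases whose transcripts are best known to increase when muscle wastes after denervation, fasting or glucocorticoids. Fbxo30 (MUSA1), Fbxo31 and Fbxo21 (SMART) are F-box proteins, the substrate-binding part of ligases built on Skp1 and Cul1. Cblb is a ligase known to target the insulin receptor substrate Irs1. FoxO factors switch on many of these genes, and insulin and IGF signalling through Akt keeps them out of the nucleus by phosphorylation, a step that transcript levels do not show. Klf15 is a zinc finger factor induced by glucocorticoids that promotes amino acid breakdown in muscle.

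Several genes were read by more than 1 probe, and the probe sequences show where these readings came from. Positions are counted along the transcript the probe was designed on, and coordinates are on mm9, the build in the scanner files. The first 2 sequences belong to Foxo4 probes that start 8 bases apart at positions 1915 and 1923 and share 52 of their 60 bases. They are shown because they gave unlike values, and the capitals mark the 22 bases that the printed stretches of 30 bases have in common. The third is the first 30 bases of the Fbxo30 probe at position 3810, in which the capitals mark a run of 19 bases that occurs again in the same probe, from its base 42. A repeat of that length was found in 0.201% of the 55681 probes of 60 bases on the array. The last 4 are the probe pairs of Foxo1 and Trim63, the upstream probe whole and the downstream probe by its first 30 bases.
Foxo4, probe at 1915: actttagaGCTAAGGATTGGTGGCAACACA
Foxo4, probe at 1923: GCTAAGGATTGGTGGCAACACActcaagtg
Fbxo30, probe at 3810: gtaGATTCATATGTCCCATATAttagtcag
Foxo1, probe at 2308: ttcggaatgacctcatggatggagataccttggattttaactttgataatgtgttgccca
Foxo1, probe at 4809: ttctgggagaatgttcgctttctggtctat
Trim63, probe at 1016: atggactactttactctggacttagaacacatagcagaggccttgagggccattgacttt
Trim63, probe at 1366: ccaaaacgtcacaggacacttttctacgtt

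The arrays held 59305 gene spots, of which 24916 (control) and 24982 (N2ICD) were well above background and 0 were saturated. The N2ICD array was brighter, with a 75th percentile signal of 190 against 169, and each array was scaled to its own. All differences are log2, N2ICD minus control, after this scaling, and the median over 13061 measured genes was 0.00. Over 260 probes with repeated spots, the SD of such a difference between spots was 0.16, from 0.27 among the dimmest probes to 0.05 among the brightest. Between probes of 1 gene it was 0.25. Neither includes a spread between animals. A single array per group allows no test, and genotype, animal, dissection and array cannot be told apart. The muscle label was matched by its markers: the skeletal actin Acta1 gave 461834 for control and 482673 for N2ICD muscle, and the muscle creatine kinase Ckm had 269612 and 212158.

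None of the 9 measured genes was 2-fold higher or 2-fold lower in the N2ICD muscle. Of all measured genes 1.48% were 2-fold higher and 0.934% were 2-fold lower. None of the 9 passed 1.5-fold either, against 5.21% of all genes higher and 4.93% lower. With 9 genes and shares this low, counts of 0 do not set them apart from all genes. On a spike-in scale 4 of the 9 were 1.5-fold higher, Foxo1, Fbxo32, Fbxo31 and Fbxo30, as were 34.8% of all genes. With probes above background on at least 1 array Foxo4 was, at 0.60, as were 7.30% of all genes. That Foxo4 value takes in its probe at 1915, which passed the background call on the N2ICD array alone. The differences ran from -0.31 for Klf15 to 0.39 for Foxo1, with a median of 0.09. Of the 9 genes 7 lay above 0, or 77.8%, where 50.4% of all genes did. Foxo1, Fbxo32 and Fbxo31 were the highest, between 1.25-fold and 1.31-fold, and among all measured genes 11.2%, 11.7% and 14.8% lay above them.

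**Figure D1:**
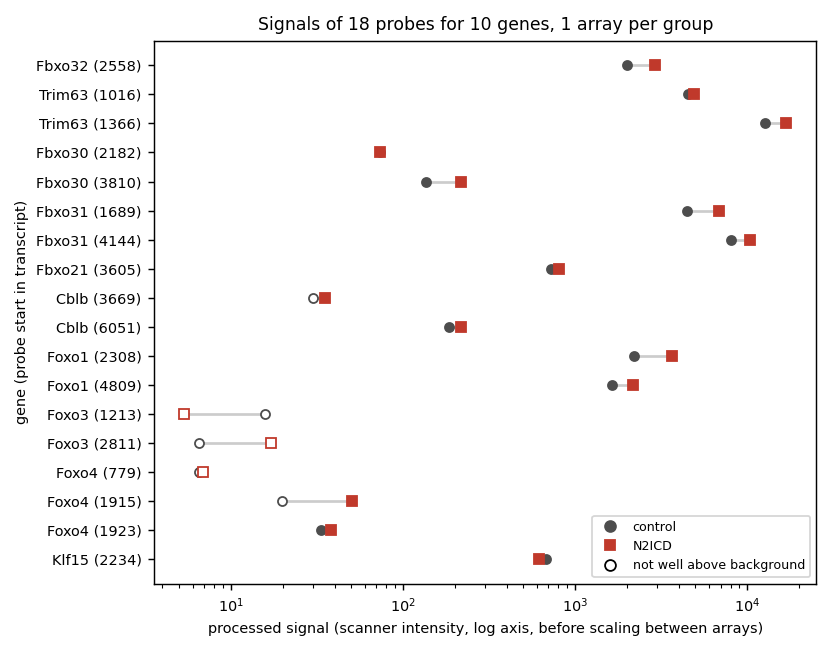
Processed scanner signal (log axis, before scaling between the arrays) of each of the 18 probes on the control array (circles) and the N2ICD array (squares), labelled by gene and position in the transcript. Open symbols are not well above background: both Foxo3 probes are open on both arrays, and the 2 Foxo4 probes at 1915 and 1923 lie apart on the control array at 19.7 and 33.5.

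Among the ligases, Fbxo32 was read by the most spots, 10 of 1 probe on each array (chromosome 15, 58011752 to 58011811, minus strand). The spots ran from 1921 to 2103 on the control array, with a median of 1998. On the N2ICD array they ran from 2803 to 3067, with a median of 2918. The spots of the 2 arrays did not overlap before scaling, but the N2ICD array as a whole was brighter then. How many other probes with repeated spots were separated in this way was not counted. After scaling the difference was 0.38 with an SD of 0.05 over the 10 spots, which ran from 0.26 to 0.46, or 1.30-fold. The repeated spots measure how evenly 1 labelled RNA hybridised. The scanner software's own error model gives a wider error of 0.20 for the same difference, which lies within 2 times that error. The authors' deposited table lists a fold of 1.312 for this probe, in the same direction.

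**Figure D2:**
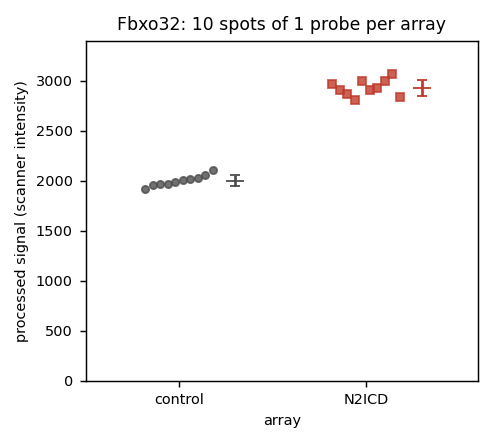
Processed signal of the 10 Fbxo32 spots on the control array (circles) and the N2ICD array (squares), in order of their control signal, before scaling. The bars beside them are the mean and SD over spots, 2001 ± 52.3 for control and 2928 ± 82.9 for N2ICD, and they show spot noise within 1 RNA sample per group.

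Trim63, a RING finger ligase of the sarcomere, was read by 2 probes that differed in sign. The probe at position 1016 (chromosome 4, 133881557 to 133881616) read 4550 in the control and 4912 in the N2ICD muscle, which after scaling is a difference of -0.06. The probe at position 1366 (133885025 to 133885084) had signals of 12661 and 16857, a difference of 0.24. Their mean was 0.09, with an SD of 0.21 between probes, and 74.0% of all genes had a larger difference in either direction. Fbxo32 and Trim63, often measured together as markers of wasting, thus gave values of 0.38 and 0.09 in these arrays, and their difference from each other could not be tested.

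The other F-box genes gave a mixed picture. Fbxo31 had a mean difference of 0.32, or 1.25-fold. Its probe at 1689 (chromosome 8, 124075949 to 124076008) had signals of 4477 and 6813 and a difference of 0.43. Its probe at 4144 (124073494 to 124073553) had 8042 and 10403 and a difference of 0.20. Both Fbxo31 probes were higher in the N2ICD muscle, as was the single probe of Fbxo32.

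Fbxo30 had a mean of 0.17 over 2 probes that lay 0.68 apart, the widest gap among the measured genes. The probe at 2182, whose bases lie in a span of 3704 bases of chromosome 10 (11011329 to 11015032), had signals of 73.6 and 73.4 and a difference of -0.17. The probe at 3810 (11016601 to 11016660), which holds the repeated run printed above, had 136.0 and 218.0 and a difference of 0.51. The part of the repeat in this gap was not tested. The 2 Fbxo30 probes thus differed in sign, but the one at 2182 had a scanner error of 0.27 and gave no direction.

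Fbxo21 had signals of 723 and 811 (chromosome 5, 118459897 to 118459956) and a difference of -0.01, closer to 0 than 98.1% of all measured genes. Cblb had signals of 186 and 217 at position 6051 (chromosome 16, 52207889 to 52207948) and a difference of 0.05. Its other probe, at 3669, passed the background call in the N2ICD muscle alone, with signals of 29.8 and 35.3. For such a probe a bound sets the brighter value against the higher of the dim value and the lowest value called well above background. Here the bound was the plain difference, 0.07 or 1.05-fold. The dim value of 29.8 thus lay above the lowest called value yet was not called, so a bound is no firm minimum. The scanner error of this probe was 0.45, so it gave no direction. The Fbxo21 probe and the Cblb probe at 6051 thus lay within 2 SD of the spot noise.

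Of the 13 probes measured on both arrays, 9 were above 0 and 4 below. Past 2 SD of the spot noise at their brightness were 7 higher probes and 1 lower one. For the brightest probes this cut-off was only 0.11. The 25th and 75th percentiles of all measured genes, at -0.19 and 0.19, lay beyond it. Past 2 times the scanner's own error, which was at least 0.20 for each probe, were 3 higher probes and 0 lower ones: Foxo1 at 2308, Fbxo30 at 3810 and Fbxo31 at 1689. How many of all measured probes passed either cut-off was not counted, so these counts do not set the 13 probes apart from the rest of the array.

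**Figure D3:**
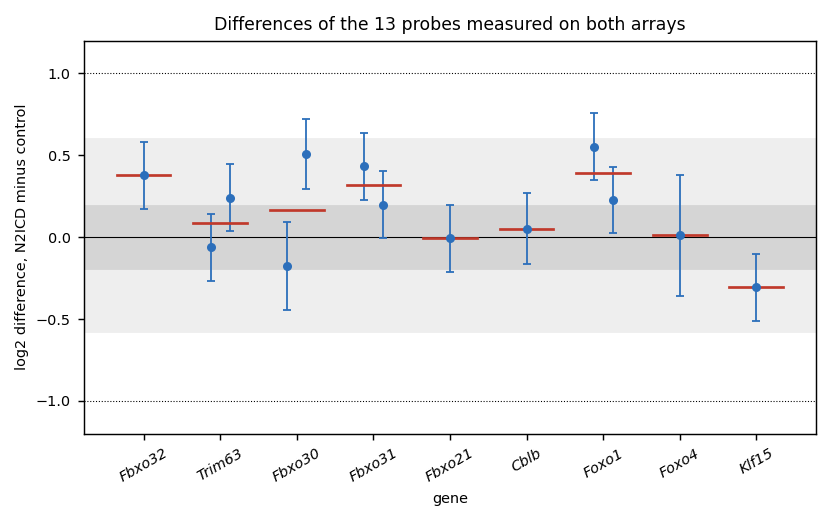
Log2 difference, N2ICD minus control, of each measured probe (points, with the scanner software's error of the difference) and the mean over a gene's probes (red lines). The dark band holds the middle 50% of all measured genes, from -0.19 to 0.19, the light band the middle 90%, from -0.58 to 0.60, and dotted lines mark 2-fold, which none of the 13 probes measured on both arrays reaches.

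Among the transcription factors, Foxo1 was the highest of all 9 genes, with a mean difference of 0.39 or 1.31-fold. Its probe at 2308 (chromosome 3, 52150183 to 52150242) read 2204 in the control and 3643 in the N2ICD muscle, a difference of 0.55. Its probe at 4809 (52153289 to 52153348) had 1634 and 2154 and a difference of 0.23. Both were higher in the N2ICD muscle, the upstream probe more so, whereas for Trim63 the downstream probe was the higher one. Foxo1 is the FoxO factor that also controls fuel choice in muscle, through genes such as the pyruvate dehydrogenase kinase Pdk4, which had signals of 16535 and 23204 and a difference of 0.32.

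Foxo3, the factor best known for switching on Fbxo32, could not be read. Its probe at 2811 (chromosome 10, 41905610 to 41905669) had signals of 6.56 and 17.1. Its probe at 1213 of another transcript (41967288 to 41967347) had 15.8 and 5.37. Neither was well above background on either array, and their order between the arrays was opposite, so no fold is given. This does not show that the muscle lacked the transcript.

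Foxo4 was dim. The probe at 1923 (chromosome X, 98454974 to 98455033) had signals of 33.5 and 38.0 and a difference of 0.01. The probe at 1915 (98454966 to 98455025) had 19.7, not well above background, and 50.5, a bound of 1.76-fold higher in N2ICD. The remaining probe, at 779 of another transcript, passed the background call on neither array, with 6.55 and 6.88. The overlapping probes share all but 8 bases at each end, yet gave 0.01 and a bound of 0.82. The scanner error of the difference was 0.37 for the probe at 1923 and 0.55 for that at 1915. The bound of 0.82 lies within 2 times the latter.

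Foxo6, a further FoxO gene outside the set, had the largest measured difference of the FoxO genes. Its mean signals were 1305 in control and 770 in N2ICD, a difference of -0.86, with probes at -0.94 and -0.78. It was thus lower in the N2ICD muscle by both probes, while Foxo1 was higher by both of its own.

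Klf15 was the lowest of the 9 genes. Its probe (chromosome 6, 90425144 to 90425203) had signals of 675 and 615, and after scaling it was 1.24-fold lower in N2ICD, a log2 difference of -0.31, with 15.7% of all genes lying below it. This is past 2 SD of the spot noise but within 2 times the scanner error of 0.20. With the spike-in probes as the scale its value was 0.17, above 0. Bcat2, an enzyme of branched-chain amino acid breakdown known as a Klf15 target, had signals of 688 and 629 and a difference of -0.30. Prodh, a proline-degrading enzyme and another such target, had 0.10.

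Promoter sequences from RefSeq (GRCm38.p6, 250 bases before to 50 after the gene's start) matched 8 of the 10 genes, and Fbxo32 and Foxo4 had no entry. They were searched on both strands for the FoxO site GTAAACA, the Rbpj site GTGGGAA through which Notch acts, the E-box CACGTG and the full glucocorticoid response element (its palindromic consensus with a spacer of 3 free bases). GTAAACA was found in 1 of the 8, Trim63, starting 194 bases before the gene's start, and in 3.65% of all 32851 promoters. Trim63 also holds the glucocorticoid element less 1 base at each end, from 208 bases before the start and next to the FoxO site. That shorter motif was chosen after the sequence was seen, and 0.0578% of all promoters hold it. CACGTG was found in Klf15 alone, at 228, 172 and 3 bases before the start, and in 7.15% of all promoters. GTGGGAA was found in 0 of the 8 and in 6.38% of all, and the full glucocorticoid element in 0 and in 0.00913%. The windows below show the Trim63 site and the upstream pair of Klf15 E-boxes, with the matches to GTAAACA or CACGTG in capitals, since GTAAACA and CACGTG are the motifs of the first search with a match among the 8 genes. A match of letters does not show binding.
Trim63, chr4:134314890-134314969, plus strand: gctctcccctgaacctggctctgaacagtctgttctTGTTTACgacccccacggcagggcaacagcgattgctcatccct
Klf15, chr6:90462336-90462415, plus strand: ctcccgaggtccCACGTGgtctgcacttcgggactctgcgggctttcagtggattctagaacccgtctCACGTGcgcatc

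The genes around these members were read from 7 lists chosen by known role. They held from 9 to 22 measured genes each. None of these genes was 2-fold higher and 1 was 2-fold lower, beside 1.48% and 0.934% of all measured genes. Such counts are too small to set the lists apart from all genes. Regulators of FoxO activity had a median of 0.03, with 11 of 19 measured genes above 0. Irs1, the docking protein of the insulin and IGF receptors and a known protein target of Cblb, had mean signals of 3161 and 2509. Its difference was -0.53, or 1.44-fold lower, with probes at -0.56 and -0.50. Irs2 had -0.32 and the receptor Igf1r 0.33. The kinases that inactivate FoxO had 0.20 for Akt1 and 0.03 for Akt2, and the glucocorticoid receptor Nr3c1 had -0.26. Both insulin receptor substrates were thus lower and the receptor Igf1r higher on the N2ICD array.

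Known FoxO targets outside the set had a median of 0.10, with 15 of 22 above 0. Cited2, a transcriptional coregulator, had mean signals of 1718 and 878 and was 2.26-fold lower in N2ICD, by probes at -1.30 and -1.06. The repressor Bcl6 had -0.77, the stress protein Gadd45a -0.66 and the translation repressor Eif4ebp1 0.70. The autophagy and mitophagy genes of the list were Bnip3 at 0.19, Gabarapl1 at 0.18, Pink1 at 0.17, Map1lc3b at 0.13, Bnip3l at 0.07, Ulk1 at 0.03 and Atg12 at -0.13. The targets therefore ran in both directions, from -1.18 to 0.70. This range is wider than that of the members, but it was taken over 22 genes against 9.

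Other muscle ubiquitin ligases had a median of 0.10, with 15 of 21 above 0. Cbl, the closest relative of Cblb, was dim, at signals of 62.3 and 44.0, and had -0.67. Wwp1 had 0.47, Itch 0.41 and Fbxl22 -0.35. The Trim63 relatives Trim54 (MuRF3) and Trim55 (MuRF2) had 0.05 and 0.20, and Fbxo25, the closest relative of Fbxo32, had -0.10. Fbxo40, a muscle F-box protein known to target Irs1, had 0.32 over probes at 0.02 and 0.62. These named relatives of Trim63 and Fbxo32 had differences between -0.10 and 0.20, while Cbl was lower by more than any of the 9 genes.

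The body of the F-box ligases had a median of 0.13, with 7 of 9 above 0. The scaffold Cul1 had 0.26, the adaptor Skp1a 0.24, the modifier Nedd8 0.28 and the Cul1-activating factor Dcun1d1 0.36. Uba3, which activates Nedd8, passed the background call in the N2ICD muscle alone, with signals of 24.9 and 50.6. Ubiquitin genes, conjugating enzymes and deubiquitinases had a median of 0.02, with 10 of 18 above 0. The conjugating enzyme Ube2d1 had -0.80, Ube2g1 -0.33 and the proteasome-bound deubiquitinase Usp14 0.34, the last over probes at 0.10 and 0.59. Ube2b, the conjugating enzyme known to increase in wasting muscle, had 0.20 over 3 probes from 0.16 to 0.24. By their medians both lists lay close to the typical gene, with Ube2d1 the farthest from it.

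Glucocorticoid and Klf15 responsive genes had a median of 0.01, with 9 of 17 above 0 and 8 below. Fkbp5 and Tsc22d3 (Gilz), which respond to glucocorticoids in most tissues, had 0.01 and 0.05. The factor Cebpd had 0.69, Errfi1 0.52, the alanine aminotransferase Gpt -0.39 and Pnmt -0.65. Among other Forkhead O, Klf and Cbl genes the median was 0.17, with 9 of 12 above 0. Klf10, a factor induced by TGF-beta, had signals of 534 and 1126 and a difference of 0.90, and Klf4 and Klf5 had 0.45 each. Sgk1 and Klf2 each stand in 2 of the lists.

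**Figure D4:**
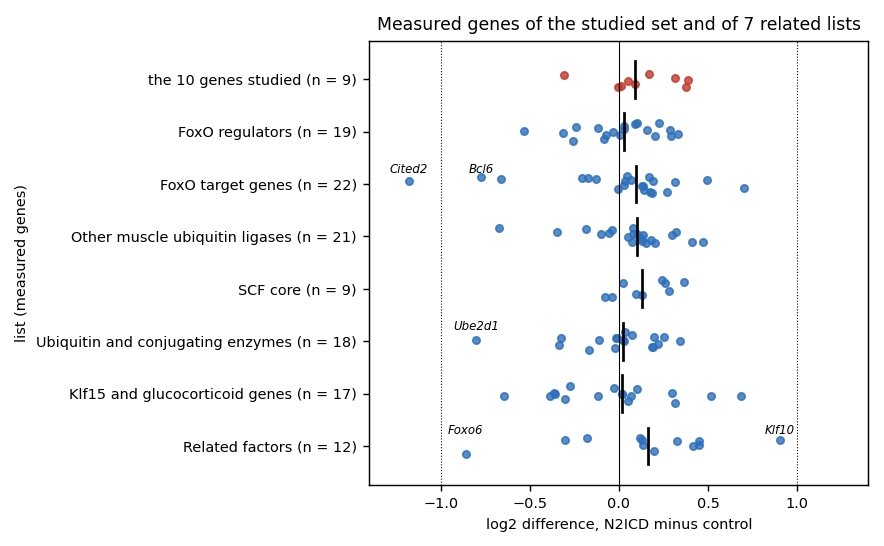
Log2 difference, N2ICD minus control, of each measured gene (points) in the studied set and in 7 lists of related genes, with the median of each list (black lines); dotted lines mark 2-fold. The medians lie between 0.01 and 0.17, and Cited2 is the only point past 2-fold.

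Cells other than muscle fibres also express several of these genes, and their markers differed between the arrays. Fibroblast markers had a median of -0.27, with 4 of 6 below 0, endothelial markers -0.34, with 5 of 6 below 0, and macrophage and leukocyte markers -0.44, with 4 of 5 measured below 0. The leukocyte marker Ptprc did not pass the background call. Muscle fibre markers had -0.22, with 6 of 8 below 0, erythroid markers -0.16, and adipocyte, smooth muscle and Schwann cell markers 0.05, -0.03 and 0.04. Satellite cell markers Pax7, Cdh15 and Sdc4 had 0.14, 0.73 and 0.86. The summed level of a list differed by -0.30 for fibroblasts, -0.34 for endothelium, -0.46 for macrophages, -0.17 for muscle fibres, -0.15 for erythroid cells, -0.13 for smooth muscle, 0.24 for adipocytes, 0.30 for Schwann cells and 0.72 for satellite cells. Their part in the values of the 9 genes was not tested. In whole muscle, fewer cells of a type and less RNA per cell cannot be told apart.

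The direction of 3 of the 9 genes depended on the scaling or filter. Scaling by 7 spike-in probes moved all genes up by 0.48, and on it all 9 lay above 0, from 0.17 for Klf15 to 0.87 for Foxo1, as did 92.3% of all genes. A gene or list with a negative value smaller in size than 0.48 lies above 0 on that scale. Fbxo21 was below 0 in 9 settings and above it in 4, from -0.05 to 0.47. Foxo4 was below 0 in 2 and above it in 11, and reached 0.60 when the probe at 1915 was let in. The 9 genes' median lay 0.09 above that of all genes in the main setting, 0.16 with probes above background on at least 1 array, 0.19 with the brightest probe of each gene and 0.21 with no filter.

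**Figure D5:**
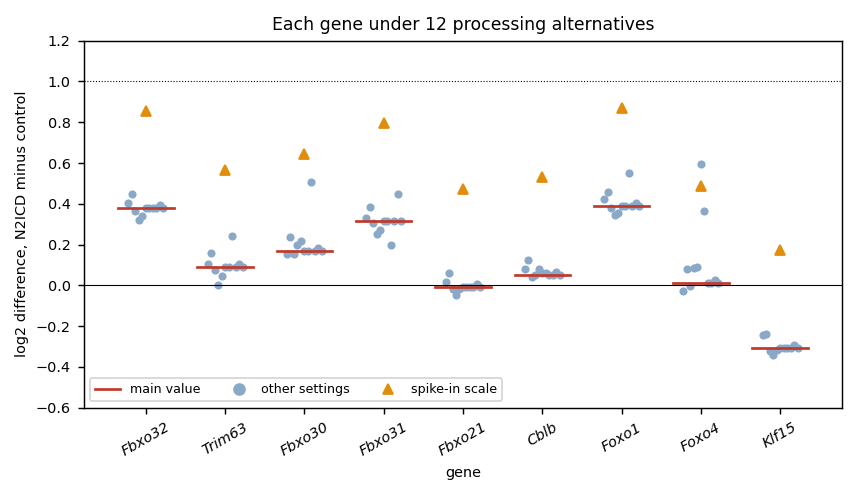
Log2 difference of each measured gene in the main setting (red line), on the spike-in scale (triangle) and in the other alternatives (points). Fbxo32, Trim63, Fbxo30, Fbxo31, Cblb and Foxo1 lie above 0 in every setting drawn, with Trim63 as low as 0.00, and no value reaches 2-fold (dotted line).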

How the data were processed

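The scanner files hold spot intensity values that the authors extracted with the Agilent scanner software (Feature Extraction, version 10.10.1.1, in the file headers), background-subtracted within each array and not scaled between arrays. The authors' deposited table gives an unsigned fold (ratio) with a direction, an intensity and a log2 value per array for 23793 probes; its making is not described in the labels, and its intensities matched the processed signals within 0.1% for 100.0% of probes with 1 spot on each array.

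The log2 processed signal had the 75th percentile of that array's non-control spots subtracted. In all, 215 spots flagged as non-uniform or outliers on either array were left out, none of them from the 10 genes, and spots of 1 probe were averaged, which left 55672 probes. A gene's value is the mean over probes that passed the background call on both arrays, named by the file's gene name; lincRNA and nameless probes stayed out of the gene counts. The 10 genes and the lists were chosen with earlier results of these data known. Named were all 10 genes, 17 relatives fixed by name and up to 4 genes per list with the largest differences; the autophagy and mitophagy genes, Ube2b and Prodh were added after their values were seen, and some genes that the rule would name are not reported here. The steps were tested on simulated data. Values were computed with R 4.3.3, limma 3.58.1, Python 3.11.15, pandas 2.3.3 and numpy 2.4.6, and drawn with matplotlib 3.10.9.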

Additional observations from a re-analysis of the deposited data

How the results depend on the processing

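No paired analysis was possible because each group had 1 array. The alternatives were normexp background correction (offset 50), scaling by the median, by spots well above background, by quantiles, by loess or by spike-in spots, looser filters, the brightest probe, flagged spots kept, the deposited table, names through accession, and thresholds of 1.5-fold and 4-fold. None of the 9 genes passed 2-fold, up or down, under any of them. On the spike-in scale 4 were 1.5-fold higher, as were 34.8% of all genes. With probes above background on at least 1 array 1 was, as were 7.30% of all genes. The spike-in scale moved the 9 genes' median to 0.57 and the list medians to 0.51 (FoxO regulators), 0.58 (FoxO targets), 0.58 (other ligases), 0.61 (F-box ligase body), 0.50 (ubiquitin and conjugating enzymes), 0.49 (Klf15 and glucocorticoid genes) and 0.64 (related factors). Over all genes the main setting gave 193 higher and 122 lower at 2-fold, so 61.3% of them were higher. The counts were 81 and 43 with normexp, 876 and 25 on the spike-in scale (97.2% higher), 359 and 324 with probes above background on at least 1 array, 803 and 935 with no filter, 680 and 644 at 1.5-fold and 20 and 9 at 4-fold. Signal over background limits Foxo3 and Foxo4: with no filter Foxo3 had -0.26, the mean of 2 probes of opposite sign.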

Other observations

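Genes within 100 kb of a probe of the 10 genes were read by 52 probes, of which 29 were well above background on both arrays. Their median difference was 0.04, and 15 lay above 0. The examples here were chosen after their values were seen. Slc30a2, a zinc transporter gene beside Trim63 (mm9, chromosome 4, 133908440 to 133908499), read 65.6 on the control and 149 on the N2ICD array, a log2 difference of 1.01, and was the only one of the 29 past 2-fold. Nos1, the neuronal nitric oxide synthase of the muscle membrane, lies beside Fbxo21 and had 0.64 and 0.40 by its 2 probes. Snx12, a sorting nexin near Foxo4, had 0.47 and 0.53 by its 2 probes. Foxo4 itself had 0.01 by its probe at 1923 and a bound of 0.82 by that at 1915. A lincRNA region beside Klf15 (chromosome 6, 90436397 to 90436456) read 64.5 on the control array and 20.7, not well above background, on the other. Its bound was 2.68-fold lower, which is no firm minimum. Of the other probes that the array assigns to the same lincRNA region, the adjoining one read 8.87 and 5.86, above background on neither array. The one at its far end (90469231 to 90469290) read 105 and 88.7, a difference of -0.41.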
